A study of Drosophila melanogaster with 4 samples.

Results

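The pan-neuronal and axonal identity genes elav, fne, Appl, futsch, CadN, nrv3 and scrt were followed in RNA from Drosophila melanogaster embryo cell culture. The RNA was that of the cells left after a class of labelled neurons had been sorted out. No array of unsorted cells or of the sorted neurons was used here, so the share of neuronal RNA that remained could not be measured. The members were all probe sets whose symbol in the array's annotation was one of these 7 names. That gave 8 probe sets of 6 genes, of 10844 genes named singly by the 14010 probe sets of the array. Appl, CadN, elav, fne and nrv3 had 1 probe set each and futsch had 3. The annotation used here did not name a probe set for scrt, so that gene was not analysed here.

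Total RNA of 4 samples was hybridised, 1 array each, and every sample was a negative fraction, the cells left after fluorescence-activated sorting. For the 2 Gad1-negative samples, a and b, neurons were marked with dsRed1, a red fluorescent protein fused directly to a 2.1 kb promoter of Gad1, the gene of the GABA-making enzyme; no culture age is labelled. The 2 Cha-negative samples, likewise a and b, derive from cultures aged 3 to 5 days whose cholinergic (acetylcholine-releasing) neurons expressed GFP. The groups thus differ in reporter as well as in the class sorted out, and may differ in culture age. For a difference between the groups, these cannot be told apart. Whether the a and b samples came from separate cultures is not labelled, and the spread behind each p-value is that between these samples and may be technical. A promoter fragment labels only the cells in which it is active, and each negative fraction can still hold neurons of the other transmitter classes.

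ELAV-family proteins bind RNA in neurons and direct alternative splicing and 3' end choice; ELAV is the classical marker of fly neurons and FNE, "found in neurons", is its close relative. Appl is the fly relative of the amyloid precursor protein, a membrane protein of neurons. Futsch is a microtubule-associated protein of axons and dendrites, related to mammalian MAP1B and recognised by the antibody 22C10. CadN is N-cadherin, which joins neuronal membranes to each other, and nrv3 encodes a beta subunit of the sodium pump found in the nervous system. The genes elav and Appl lie close together on the X chromosome, with 3 gene starts between them in the RefSeq annotation of assembly Release 6, and fne and futsch are also X-linked.

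Probe sets of neuronal genes were read in all 4 negative fractions. The elav, fne, Appl, CadN and nrv3 probe sets and 1 of the 3 futsch probe sets read above the floor of 44.9 in every sample, the 20th percentile of all values, below which intensities were set to the floor. Of all probe sets that were not array controls, 64.2% did so. The floor is a percentile of all values, not a detection limit, so a reading above it does not establish that a transcript was present. Some member readings were low, such as elav at 67.2 and futsch at 77.6 in Gad1-negative a, and CadN at 46.3 in Cha-negative b. The same 6 probe sets passed the filter on mean level (log2 7.05, an intensity of 132) and were tested among 8384 probe sets; both other futsch probe sets lay under it and have values but no test. Each difference is a log2 value, Gad1-negative minus Cha-negative, given with the standard error (SE) of the limma fit on 2 samples per group; p was adjusted over all 8384 probe sets. The samples' median intensities ran from 181 to 248, and 15.8% to 24.3% of their probe sets lay under the floor, with the larger shares in Gad1-negative. Intensities of different probe sets are not comparable with each other. In such bulk samples, fewer neurons and less RNA per neuron cannot be told apart.

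Among the RNA-binding proteins, elav was the less even. It read 67.2 and 909 in Gad1-negative a and b, against 165 and 335 in Cha-negative a and b. Both Cha-negative values lay between the Gad1-negative values, which were 13.5-fold apart, while the Cha-negative samples were 2.03-fold apart. The group means nearly coincided, at log2 7.95 ± 2.66 in Gad1-negative and 7.88 ± 0.72 in Cha-negative (SD, n = 2 each). The difference was 0.07 ± 1.17 (SE; 95% interval -2.64 to 2.79; limma adjusted p = 0.995). Leaving out Gad1-negative b gave -1.81 and leaving out Gad1-negative a gave 1.95. Without Cha-negative a it was -0.44, so the sign of this difference near 0 was not stable.

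Its relative fne was among the steadiest of these probe sets. It read 782 and 920 in Gad1-negative a and b, against 515 and 770 in Cha-negative a and b. Both Gad1-negative values lay above both Cha-negative values, by a narrow margin over Cha-negative b. The difference was 0.43 ± 0.54 (SE), or 1.35-fold, and its 95% interval of -0.83 to 1.69 spans 0.562-fold to 3.23-fold (limma adjusted p = 0.929). The sign stayed positive in all 15 alternatives run for it, from 0.14 to 0.72. Rbp9, the third fly member of the ELAV family, had 2 probe sets. The tested one read 350 and 77.2 in Gad1-negative a and b, against 211 and 60.6 in Cha-negative a and b, a difference of 0.54 ± 1.10 (limma adjusted p = 0.956), high in both a samples where elav was low. The other Rbp9 probe set, under the filter, read 114 and 21.6 in Gad1-negative, against 194 and 57.7 in Cha-negative.

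**Figure D1:**
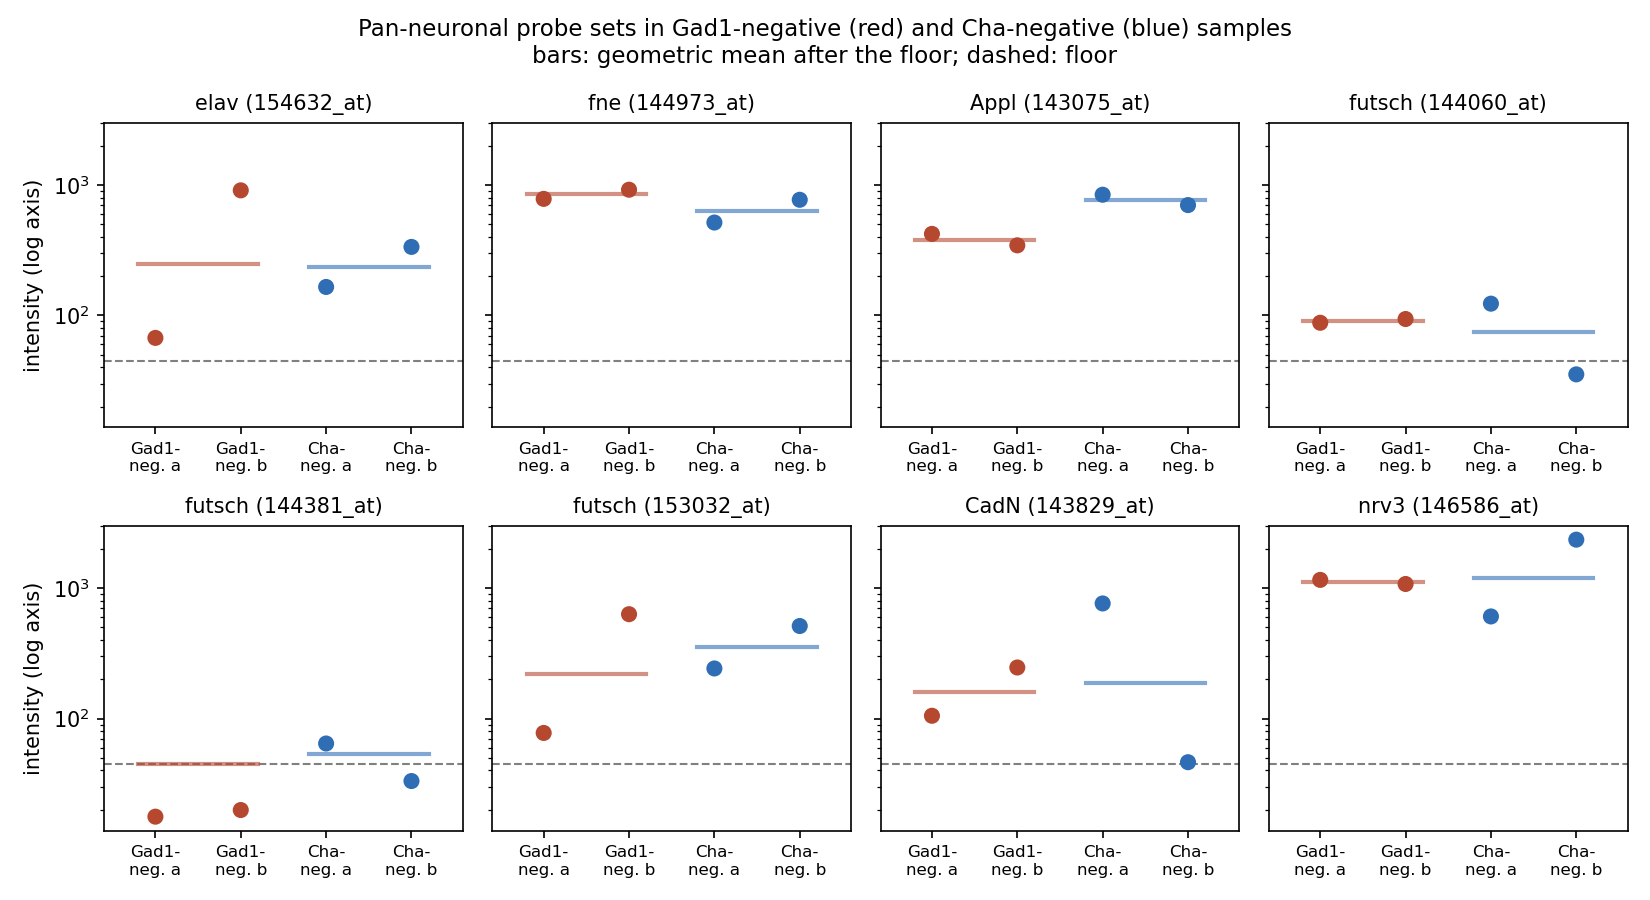
Intensity (log axis) of each of the 8 pan-neuronal probe sets in the Gad1-negative (red) and Cha-negative (blue) samples a and b; bars are group geometric means after values under the floor were set to it, and the dashed line is the floor of 44.9. Appl separates the groups, at 422 and 344 in Gad1-negative against 842 and 701 in Cha-negative, while elav spans 67.2 to 909 within Gad1-negative and CadN 46.3 to 764 within Cha-negative.

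Of the membrane proteins, Appl was the member with the clearest separation, although it did not pass the test. It read 422 and 344 in Gad1-negative a and b, against 842 and 701 in Cha-negative a and b. Both Gad1-negative values lay below both Cha-negative values, and replicates differed only 1.22-fold in Gad1-negative and 1.20-fold in Cha-negative. The log2 means were 8.57 ± 0.21 in Gad1-negative and 9.59 ± 0.19 in Cha-negative (SD, n = 2 each). The difference was -1.01 ± 0.54 (SE), or 2.02-fold higher in Cha-negative. Its 95% interval was -2.26 to 0.24 (limma adjusted p = 0.909, and 0.0980 before adjustment). It stayed negative in all 15 alternatives, from -1.16 to -0.77. Its neighbour elav did not share this pattern across the 4 samples. Of 4 controls of RNA quality, 2 moved with the groups. The ratio of 3' to 5' GAPDH probe sets was 23.9 and 38.04 in Gad1-negative, against 144 (a lower bound, with the 5' signal under the floor) and 185 in Cha-negative. That of eIF-4a was 230 and 77.1 in Gad1-negative, against 321 and 935 in Cha-negative, both lower bounds. The actin ratios overlapped, at 82.1 and 106 in Gad1-negative, against 59.4 and 124 in Cha-negative. The 18S ratios overlapped too, with Gad1-negative b at 18.8, Gad1-negative a slightly lower, and the Cha-negative samples at 59.2 and 17.3. The part of RNA quality in the Appl values, and in those of Bace among the related genes, was not tested.

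CadN differed most within a group. It read 105 and 247 in Gad1-negative a and b, against 764 and 46.3 in Cha-negative a and b. The 2 Cha-negative samples were 16.5-fold apart and enclosed both Gad1-negative values. The lower of them, Cha-negative b, lay just above the floor of 44.9, so the size of this gap rests on a reading near the floor. The difference was -0.22 ± 1.30 (SE; 95% interval -3.23 to 2.78; limma adjusted p = 0.983). Its sign was not stable, with 1.80 when Cha-negative a was left out, -2.25 when Cha-negative b was and 0.39 when Gad1-negative a was.

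The sodium pump subunit nrv3 was nearly equal in the Gad1-negative samples, at 1157 and 1077, against 607 and 2355 in Cha-negative a and b. The Cha-negative values, 3.88-fold apart, again enclosed those of Gad1-negative. The difference was -0.10 ± 0.72 (SE; 95% interval -1.76 to 1.56; limma adjusted p = 0.988). Leaving out Cha-negative b gave 0.88 and leaving out Cha-negative a gave -1.08. The related beta subunit nrv1 read 3182 and 4525 in Gad1-negative, against 2074 and 5737 in Cha-negative (0.14 ± 0.66, limma adjusted p = 0.982). nrv2, the beta subunit also known from glia, read 1069 and 296 in Gad1-negative, against 265 and 291 in Cha-negative (1.02 ± 0.72, limma adjusted p = 0.914). Its difference rested on Gad1-negative a, the other 3 values being close together.

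The axonal microtubule protein futsch gave unequal readings with its 3 probe sets. The brightest read 77.6 and 632 in Gad1-negative a and b, against 242 and 513 in Cha-negative a and b. The groups overlapped, with Gad1-negative a lowest and Gad1-negative b highest, and the Gad1-negative samples were 8.14-fold apart. The difference was -0.67 ± 1.01 (SE; 95% interval -3.01 to 1.67; limma adjusted p = 0.936). Leaving out Gad1-negative a gave 0.84 and leaving out Gad1-negative b gave -2.18. The second probe set read 87.8 and 93.8 in Gad1-negative, against 123 and 35.3 in Cha-negative, the last under the floor. The weakest read 17.7 and 19.9 in Gad1-negative, against 64.4 and 33.2 in Cha-negative, and only Cha-negative a was above the floor. The second probe set did not show the gap between the Gad1-negative samples that the brightest did, and the weakest, under the floor in both, could not show one. The annotation does not say which part of the transcript each reads.

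Between the fractions, none of the 6 tested members passed an adjusted p under 0.05. The same held for 0 of all 8384 probe sets (0%), while 422 (5.03%) had an unadjusted p under 0.05, and none of the 6 members did. Members' limma adjusted p ran from 0.909 to 0.995. The groups did not overlap for fne and Appl, 2 of the 6 members, in opposite directions, against 35.2% of all probe sets tested (14.5% higher and 20.7% lower in Gad1-negative). Differences were positive for elav and fne and negative for Appl, futsch, CadN and nrv3 (CadN and nrv3 are positive after median centring of the arrays), against 46.9% positive and 53.1% negative over all probe sets tested. Over all 8 member probe sets the median was -0.16, beside -0.06 over all probe sets tested. Median centring, which adds the same constant to every difference, gave 0.08 for the members and 0.19 for all probe sets tested. With Gad1-negative a left out the members' median was 0.36, beside -0.13 over all probe sets tested, so the order of these medians turned; with Gad1-negative b left out they were -0.55 and 0.01. The intervals reached 1.25 (Appl) to 3.01 (CadN) to either side, so for these genes 2-fold changes in either direction lay within every interval except that of fne on the lower side and that of Appl on the higher side. With 2 samples a group, the smallest two-sided p of an exact permutation test is 0.333.

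**Figure D2:**
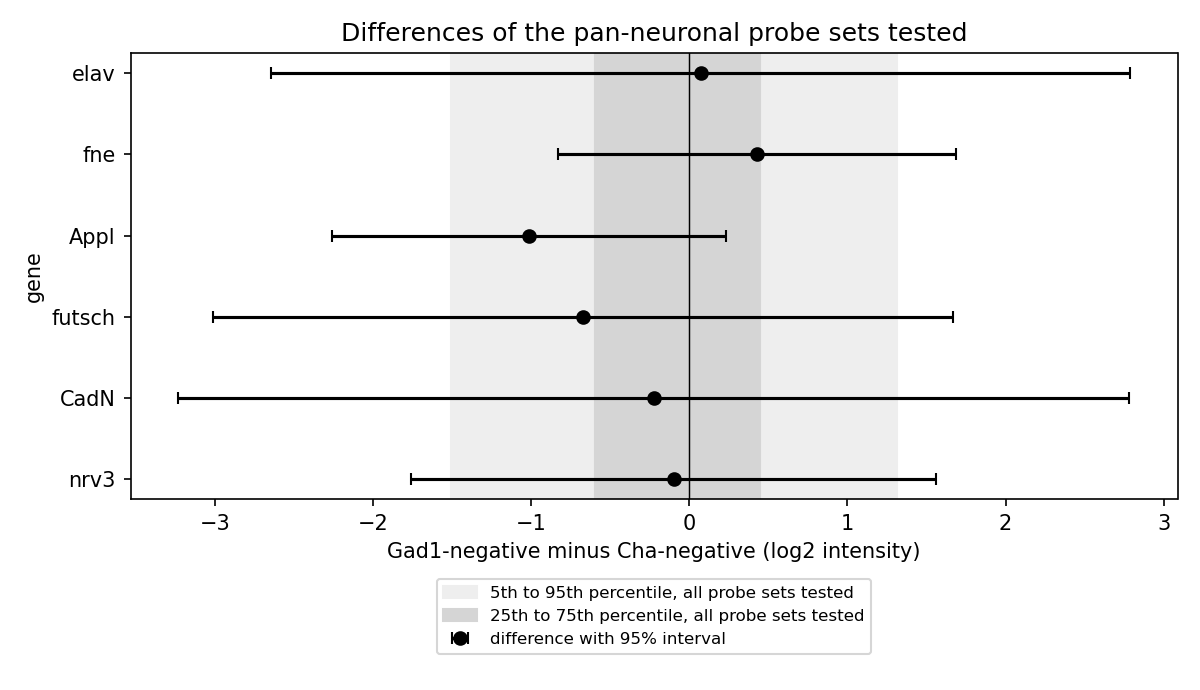
Difference of Gad1-negative minus Cha-negative in log2 intensity (x axis) for the 6 tested pan-neuronal probe sets (y axis), with the 95% interval of the limma fit; grey bands hold the 5th to 95th and 25th to 75th percentiles of all 8384 probe sets tested, -1.51 to 1.31 and -0.60 to 0.45. Every interval includes 0, and Appl (-1.01) and futsch (-0.67) lie outside the inner band.

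For all members but Appl, differences within a group were larger than that between the groups. Replicates were more than 2-fold apart for 3 of the 6 members in Gad1-negative (elav, futsch and CadN), against 37.1% of all probe sets tested, and for 4 in Cha-negative (elav, futsch, CadN and nrv3), against 29.9%. For 5 of the 6 the larger replicate gap exceeded the difference between the groups, as it did for 77.8% of all probe sets tested. The samples with the highest reading also varied by gene. Gad1-negative b was highest for elav, fne and futsch, Cha-negative a for Appl and CadN, and Cha-negative b for nrv3. Gad1-negative a was highest for none of them and lowest for elav and futsch.

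The members did not share 1 pattern across samples. Likeness was measured as the root mean square distance between log2 profiles over the 4 samples, each centred on its own mean, and is given as a description. The nearest of the 15 pairs was elav with futsch, at 0.45, both low in Gad1-negative a and high in Gad1-negative b. The next was fne with nrv3, at 0.57, and the farthest CadN with nrv3, at 2.17, which went opposite ways in the Cha-negative samples. From elav to its relative fne the distance was 1.27, and to Appl it was 1.60, beside a median of 1.53 from elav to all probe sets tested; futsch ranked at 37 in that order. The named genes closest to elav were CG3168 at 0.16, CG32564 at 0.17, Cth, cystathionine gamma-lyase, at 0.17, Phk-3 at 0.22 and bun, a transcription factor of the TSC22 family, at 0.29. CG3168, for example, read 683 and 6937 in Gad1-negative a and b, against 1377 and 3191 in Cha-negative a and b. The points share 4 arrays, and all 5 of these genes were, like elav, lowest in Gad1-negative a and highest in Gad1-negative b.

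**Figure D3:**
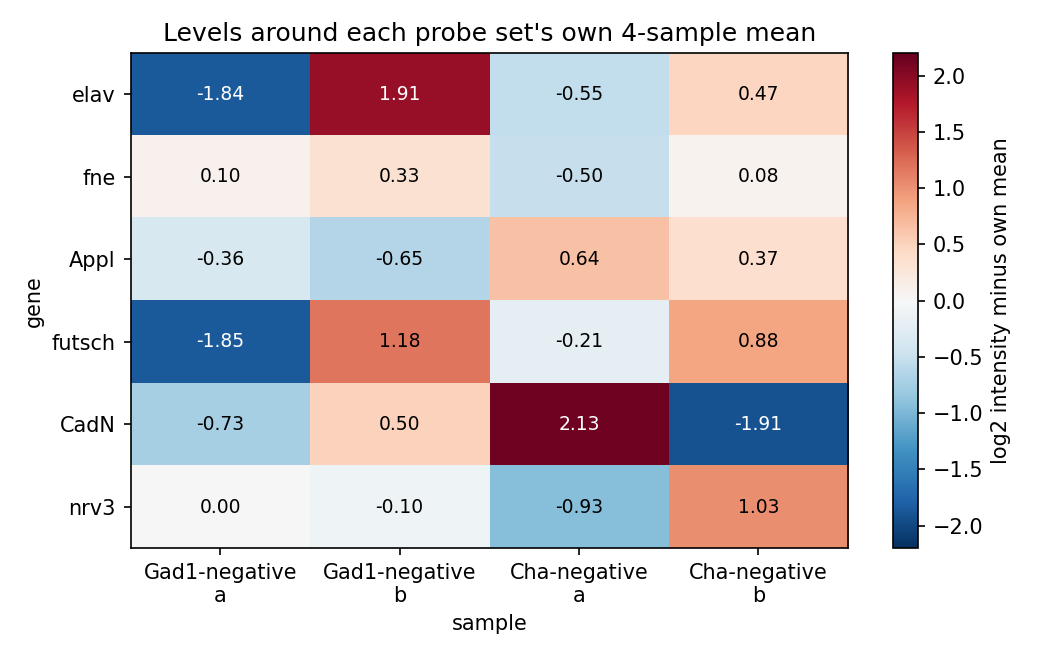
Log2 intensity of each tested pan-neuronal probe set minus its own mean over the 4 samples (colour and printed value), with genes down the page and samples across. The elav and futsch rows stand at -1.84 and -1.85 in Gad1-negative a and at 1.91 and 1.18 in Gad1-negative b, Appl is below its mean in both Gad1-negative samples, and CadN stands at 2.13 in Cha-negative a.

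Genes tied to the members by function likewise gave no call. The lists of related genes held 3 to 8 tested probe sets each, and none of these passed. For transcripts known to be spliced under ELAV control, Nrg, the neuroglian adhesion molecule, read 568 and 4453 in Gad1-negative a and b, against 473 and 3017 in Cha-negative a and b, so the b samples stood above the a samples in both groups. The transcription factor gene ewg read 1233 and 398 in Gad1-negative, against 448 and 267 in Cha-negative (1.02 ± 0.70, limma adjusted p = 0.914). With Rbp9, all 3 tested probe sets of that list were positive (median 0.54).

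For Appl processing and its adaptors, 4 of 5 tested probe sets had a negative difference, as Appl itself did, with a median of -0.50. Bace, a fly relative of the beta-secretase, read 371 and 161 in Gad1-negative, against 3284 and 1785 in Cha-negative (-3.31 ± 0.64, unadjusted p = 0.000946, limma adjusted p = 0.820). X11Lbeta, of the Mint family of adaptors that bind the tail of amyloid precursor proteins, read 545 and 420 in Gad1-negative, against 1267 and 816 in Cha-negative (-1.09 ± 0.55, limma adjusted p = 0.909). Psn, the presenilin of gamma-secretase, read 675 and 819 in Gad1-negative, against 1019 and 1081 in Cha-negative (-0.50 ± 0.52, limma adjusted p = 0.925). For Bace, X11Lbeta and Psn, 3 of the 5 probe sets, both Gad1-negative values lay below both Cha-negative values, beside 20.7% of all those tested. The tested X11L probe set, of the same list, went the other way, at 0.46.

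Among 8 axonal cytoskeleton and transport probe sets, 5 were positive and 3 negative, with a median of 0.37. For the stathmin gene stai, a regulator of microtubule dynamics, 1 probe set read 526 and 1084 in Gad1-negative, against 197 and 592 in Cha-negative (1.14 ± 0.72, limma adjusted p = 0.914). The other tested stai probe set read 2073 and 563 in Gad1-negative, against 725 and 501.5 in Cha-negative (0.84), higher in the a samples where the first was lower. For Ank2, a neuronal ankyrin, 1 probe set read 69.3 and 118 in Gad1-negative, against 289 and 230 in Cha-negative (-1.51 ± 0.81, limma adjusted p = 0.909). Another Ank2 probe set went the other way, at 0.77. The microtubule protein gene tau had 2 probe sets under the filter, at 98.9 and 120 in Gad1-negative against 49.3 and 111 in Cha-negative for the brighter one. The gene beta-Spec, which encodes a spectrin of the membrane skeleton, read 3014 and 7102 in Gad1-negative, against 2322 and 3670 in Cha-negative (0.66 ± 0.64, limma adjusted p = 0.918).

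Cadherins and catenins had 4 negative and 1 positive differences, with a median of -0.26. CadN2, which lies next to CadN but for 1 gene start, read 189 and 164 in Gad1-negative, against 356 and 271 in Cha-negative (-0.82 ± 0.65, limma adjusted p = 0.914), without the wide gap between the Cha-negative samples that CadN showed. The epithelial cadherin gene shg read 205 and 196 in Gad1-negative, against 252 and 225 in Cha-negative (-0.25 ± 0.66, limma adjusted p = 0.968). Among relatives of scrt, the zinc finger gene sna read 4311 and 2890 in Gad1-negative, against 1732 and 1921 in Cha-negative (0.95 ± 0.55, limma adjusted p = 0.909). The neuroblast gene wor read 755 and 598 in Gad1-negative, against 401 and 238 in Cha-negative (1.12 ± 0.58, limma adjusted p = 0.909), and esg differed by -0.05. For sna and wor both Gad1-negative values lay above both Cha-negative values, as for 14.5% of all probe sets tested, while esg overlapped. The other pan-neuronal genes had 18 probe sets, of which 8, of 6 genes, were tested. Among these, 6 differences were positive and 2, both of Rim, negative, with a median of 0.21. Every probe set of nSyb, brp, para, cac and onecut lay under the filter. Of these untested probe sets, nSyb differed by 2.11 and the rest were negative or 0. For nSyb both Cha-negative values, 32.4 and 34.3, lay under the floor, against 127 and 296 in Gad1-negative. The size of its difference is thus set by the floor. The rest also had readings under the floor. The synapsin gene Syn read 270 and 376 in Gad1-negative, against 188 and 317 in Cha-negative (0.39 ± 0.64, limma adjusted p = 0.947). Rim, of the active zone of synapses, differed by -0.68 ± 0.54 in the probe set with the smallest p. The neuronal transcription factor gene nerfin-1 differed by 0.86 ± 0.68.

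**Figure D4:**
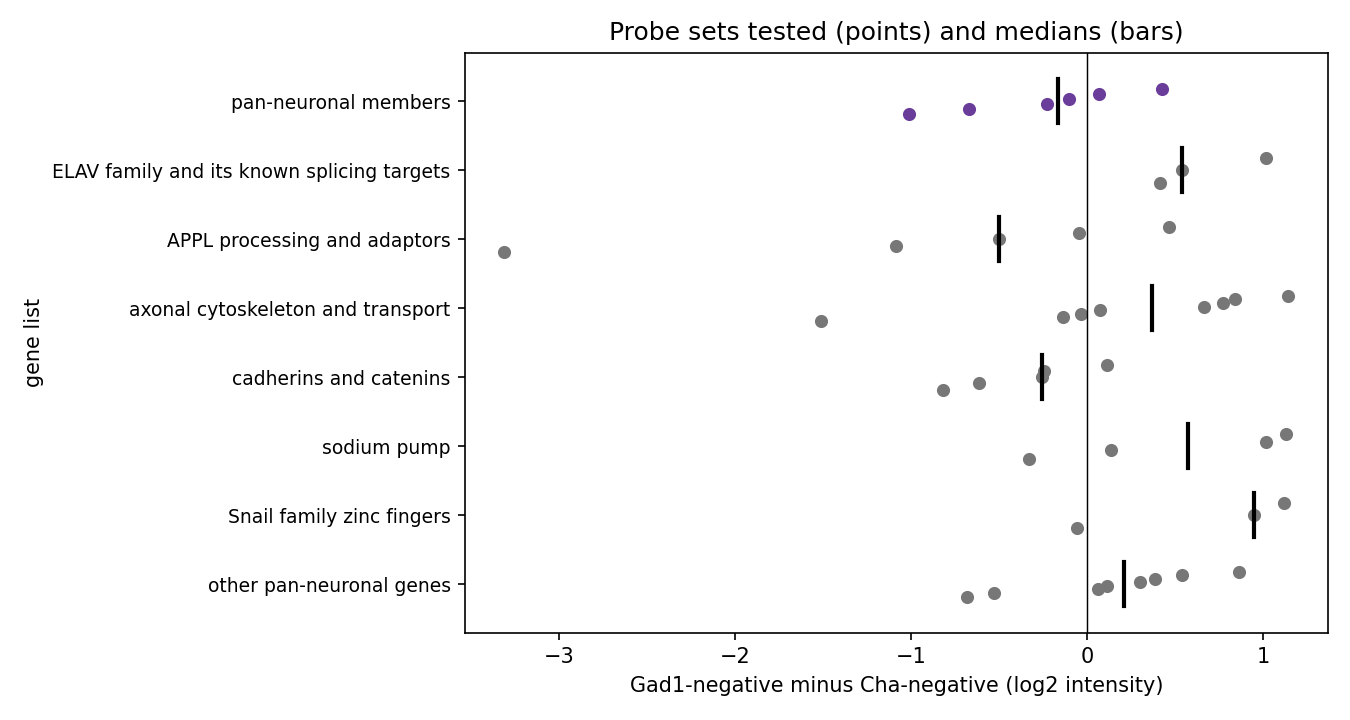
Difference of Gad1-negative minus Cha-negative in log2 intensity (x axis) for each tested probe set (points) of the pan-neuronal members (top row) and of 7 lists of related genes (rows), with list medians as bars. The medians run from -0.50 for Appl processing to 0.95 for the Snail family, Bace stands apart at -3.31, and no point passed the test.

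Of the markers of the sorted neurons, ChT, the choline transporter, had groups that did not overlap, as had 35.2% of all probe sets tested. It read 187 and 465 in Gad1-negative, against 764 and 520 in Cha-negative (-1.09, limma adjusted p = 0.909). The brighter ChAT probe set differed by -0.68, the other by -0.34 and VGAT by 0.13, all with overlapping groups. Gad1 was under the floor in all 4 samples. On average ChT and both ChAT probe sets thus read higher in Cha-negative, the fraction from which cholinergic neurons had been sorted. For ChAT this rested on Cha-negative a. The brighter ChAT probe set read 590 and 781 in Gad1-negative, against 2000 and 594.5 in Cha-negative a and b. The other read 448 and 338 in Gad1-negative, against 741 and 328.5 in Cha-negative a and b. The cause was not tested. Markers of gut cells moved with the groups in the same direction as Appl and Bace. All 3 gut probe sets were lower in both Gad1-negative samples than in both Cha-negative samples, beside 20.7% of all probe sets tested. The gut list, like the other lists, was chosen with earlier results of these data known, so such counts are descriptions and no independent support. The differences were -1.95 for Jon65Aiv, -1.21 for Mal-A1 and -1.21 for Mur18B, none of which passed (smallest limma adjusted p = 0.909). The gut probe sets were above the floor in every sample. Jon65Aiv was uneven in Cha-negative, at 413 and 1801 in a and b, against 157 and 319 in Gad1-negative. The part of gut cells in the Appl and Bace values was not tested. Other cell types were described by the differences of their tested markers. Glial markers were positive for 2 and negative for 5 probe sets (median -0.17), neuroblast markers positive for 6 and negative for 1 (median 0.11), and haemocyte and matrix markers positive for 5 and negative for 2 (median 0.19). Muscle markers spanned -3.44 to 3.15 with a median of 0.51. The groups did not overlap for 4 of 7 tested muscle probe sets, beside 35.2% of all probe sets tested. Of these, Mlc2, Tm2 and Prm were higher in Gad1-negative and 1 probe set of up was lower. An unadjusted limma p under 0.05 was found for 3 of the 7, beside 5.03% of all, and none passed adjustment. The only tested fat body marker, Lsp2, stood at 0.01.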

How the data were processed

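The authors deposited intensity values on a linear scale, 1 for each probe set of what the probe names show to be a 1-colour Affymetrix array; their software is not given in the sources used here. Trimming 2% at each end gave a mean of 500.1 in all 4 columns, so each deposited array had been scaled. Depth does not apply, and precision is limited by how few arrays there are. Of 14010 probe sets, 44 were controls, 12443 others named 1 gene, 327 several and 1196 none; symbols were updated by Entrez identifier. The probes' genome build is not stated and coordinates are left out.

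Intensities below the 20th percentile (44.9) were raised to it before log2. Probe sets that were not controls and whose mean reached the 40th percentile, 8384 in all, were fitted with limma 3.58.1 under R 4.3.3 (linear model and eBayes with an intensity trend, 2 residual degrees of freedom, two-sided, Benjamini-Hochberg). Probe sets rather than genes were tested because the members are all their probe sets. All member probe sets are named, and of each related list up to 3 genes with the smallest p and the relatives of members. The members and lists were chosen with earlier results of these data known; other genes were named after their values were seen.

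In 10 simulations, over a median of 8385 probe sets, replicate spread followed the smoothed trend of variance on mean level. Each probe set's own spread was not used, so all simulated probe sets of a given level shared the same spread. Real probe sets of a given level do not, so the rates may be too high for any probe set of these data. They need not hold for members as uneven as elav or CadN. With 50 probe sets changed at each fold, limma called 1.4% at 2-fold, 31% at 4-fold, 70% at 8-fold and 77% at 16-fold. Per simulation, over all 4 folds together, it also called 5.2 unchanged probe sets on average. Alternatives covered the normalization, floor, filter, choice of probe set, eBayes settings, a replicate block and each sample left out. Tables and figures used Python 3.11.15 with pandas 2.3.3, numpy 2.4.6, and matplotlib 3.10.9.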

Additional observations from a re-analysis of the deposited data

How the results depend on the processing

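No member passed an adjusted p under 0.05 in any alternative (smallest limma adjusted p 0.588, for Appl), and the signs of Appl and fne held in all 15. The members' median (-0.16) was 0.084 with median centring; with 1 sample left out it ran from -0.55 (without Gad1-negative b) to 0.36 (without Gad1-negative a). Median centring adds the same constant to every difference, which puts CadN at 0.021, nrv3 at 0.15 and the median of all probe sets tested (-0.06) at 0.19. A floor at the 30th percentile turned the second futsch probe set (0.29) to -0.13 and moved CadN from -0.22 to -0.62. With 1 sample left out, CadN became 0.39 (without Gad1-negative a) and 1.80 (without Cha-negative a), within a range from -2.25 to 1.80. In the same way elav ran from -1.81 to 1.95, with -0.44 without Cha-negative a; the brightest futsch probe set from -2.18 to 0.84; the second from -0.44 to 1.02; and nrv3 from -1.08 to 0.88. The cause was not tested. Limma called 0 probe sets, and 0 to 3 with 1 sample left out: Mtk, Uhg1 and an unnamed probe set without Cha-negative a, CG5968 and 2 unnamed ones without Cha-negative b. An unadjusted p under 0.05 was found for 422 probe sets; for 920 with no filter and 253 with the filter at the 60th percentile, where more and fewer were tested; and for 312 to 641 with 1 sample left out, the highest without Gad1-negative a. With the letters a and b as a replicate block it was 759, with 0 past adjustment. The a minus b differences of both groups correlated at r = 0.26 across tested probe sets, but no label says that the letters pair the samples, and the member differences do not change under the block. A lone remaining sample is assumed to vary like the other group. Arrays limit the precision: the median 95% interval reached 1.53 to either side.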
